A study of Mus musculus with 12 samples.

Results

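Expression was examined of 8 genes by which macrophages speak to T cells: Cd80, Cd86, Cd83, Cd274, Pdcd1lg2, Icosl, Icam1 and Havcr2. They were picked by symbol from a count table and are 8 of its 54446 gene rows. RNA was sequenced from mouse macrophages that were grown from bone marrow with the growth factor M-CSF. There were 4 labelled groups of 3 libraries each. All mice carried loxP-flanked Nlrc3 (NLRC3fl/fl), so the floxed allele is common to every group. The labelled knockout, NLRC3ΔMac, also carried LysM-Cre, a Cre recombinase driven by the LysM promoter, which is active in myeloid cells. The wild type (WT) lacked Cre. The groups were KO LPS, KO medium, WT LPS and WT medium, where LPS is bacterial lipopolysaccharide given for 12 h and medium is the same culture without it. The labels give no age of the mice, no line or clone number, and no statement that replicates are separate animals. A p-value then reflects the spread between these samples. In 3 of the groups libraries differed in Xist, given below, so those groups held more than 1 animal. In the libraries labelled KO medium the spread may be technical.

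A T cell that meets its antigen also reads ligands on the presenting cell. CD80 and CD86 of the B7 family bind CD28, which promotes activation, and CTLA4, which restrains it. ICOS ligand (Icosl) binds ICOS on activated T cells. PD-L1 (Cd274) and PD-L2 (Pdcd1lg2) bind the inhibitory receptor PD-1, and ICAM1 holds the cells together by binding leukocyte integrins. CD83 marks activated antigen-presenting cells and is known in mice to keep CD86 and MHC class II at the surface by opposing the ubiquitin ligase March1. Havcr2 encodes TIM3, which is a receptor for galectin 9 and phosphatidylserine and not a ligand in the usual sense. The name co-signalling molecules therefore fits the 8 genes better than ligands alone. In macrophages, LPS acts through Toll-like receptor signalling, NF-kappaB and interferon loops, all known to act on several of these genes.

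The labels were checked against the targeted gene and against LPS-responsive genes before any comparison. Nlrc3 stood at 15.6, 8.29 and 6.04 CPM (counts per 1000000 counts of the library) in libraries labelled KO LPS 1 to 3, and was at 0.996, 0.850 and 0.876 CPM in those labelled KO medium. Its level was 0.796, 4.39 and 1.40 CPM in WT LPS, and 9.89, 13.6 and 10.4 CPM in WT medium. The targeted gene was thus higher in each library labelled KO LPS than in any WT LPS library, against the genotype label. In medium it was lower in each library labelled KO than in any WT library, the direction of the genotype label. Within WT it was lower in each LPS library than in any medium library, so its level differed with treatment too. Nos2, the inducible nitric oxide synthase, was at 5.43, 1.42 and 0.689 CPM in libraries labelled KO LPS, while those labelled KO medium had 2717, 1148 and 2347 CPM. WT LPS had 2153, 831 and 2704 CPM and WT medium 5.94, 3.90 and 8.35 CPM. Ccl5, a chemokine, was at 23.5 to 58.7 CPM in libraries labelled KO LPS, 3791 to 7479.7 CPM in those labelled KO medium, 5045 to 6092 CPM in WT LPS and 17.0 to 29.9 CPM in WT medium. Acod1 and Il1b were likewise high in libraries labelled KO medium and in WT LPS. The libraries labelled KO LPS therefore had the low levels of WT medium and those labelled KO medium the high levels of WT LPS. Whether the genotype, the treatment or the names of these libraries differ from the labels cannot be told apart, nor can gene counts show whether reads fell on deleted exons. Every direction that involves KO below is that of libraries labelled so.

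Library totals ran from 13082947 to 20960505 counts, and all 8 genes passed the filter on low counts among 13773 genes kept. A bar of 3 counts is low: all 7 stromal and endothelial markers passed it in every library, so it cannot by itself show the cell type. All 9 macrophage markers exceeded 3 counts in each library. Their summed level was 21526 to 34872 CPM in libraries labelled KO LPS, 10137 to 13021 CPM in those labelled KO medium, 12740 to 19400 CPM in WT LPS and 32625 to 36322 CPM in WT medium, so the sum moved with the groups. Lyz2, the lysozyme gene, made up more of it than the other 8 markers together in 11 of the 12 libraries, the exception being KO medium 3. Lyz2 is the LysM gene, whose promoter drives Cre in the labelled knockout. Whether this altered its level was not tested. The median log2 fold of the 9 markers was 0.22 for LPS in WT and 0.20 in labelled KO. For KO over WT it was 0.07 in LPS and 0.17 in medium. Single markers were called in both directions. For LPS, 1 was higher and 1 lower in WT (18.3% of all genes called), and 1 higher and 2 lower in labelled KO (30.4%). For KO over WT, 2 were higher and 2 lower in LPS (24.1%), and 2 higher and 1 lower in medium (26.3%). Xist, which marks female cells, exceeded 20 CPM in 5 libraries, namely KO LPS 2 and 3, WT LPS 2 and WT medium 1 and 3, so the sexes were spread unevenly. In bulk samples, fewer cells of a type and less RNA per cell cannot be told apart. Folds were fitted with trimmed-mean (TMM) scaling, whose factors ran from 0.702 to 1.46, so a fold can differ from the ratio of CPM means. With library size only, the median log2 fold of all genes moved to 0.57 and −0.85 for KO over WT in LPS and in medium, to 0.78 for LPS in labelled KO and to −0.64 for LPS in WT, against 0.06, −0.02, 0.04 and −0.06 with TMM scaling.

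RefSeq promoter windows (GRCm38.p6, 250 bases before to 50 after the annotated start) were at hand for 6 of the 8 genes. Cd86 and Cd83 had none in the table. They were searched on both strands for letters of binding motifs of factors that act downstream of LPS and interferon: GGANNNTCC (NF-kappaB), TTCNNNGAA (GAS), TGANTCA (AP-1), and TTTC followed by TTTC after 2 free bases (ISRE). Shown here are the promoter of Icam1, which held 2 matches, that of Cd274, the gene with the largest differences, and those of Cd80 and Havcr2, whose interaction terms below had opposite signs. Capitals mark the matches.

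Icam1 (chr9:21015690-21015989, plus strand): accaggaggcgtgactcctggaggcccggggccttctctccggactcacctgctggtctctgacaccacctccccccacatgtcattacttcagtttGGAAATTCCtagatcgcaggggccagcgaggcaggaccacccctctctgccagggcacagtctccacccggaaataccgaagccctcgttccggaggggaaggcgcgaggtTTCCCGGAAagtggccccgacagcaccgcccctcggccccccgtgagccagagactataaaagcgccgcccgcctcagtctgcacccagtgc
Cd274 (chr19:29367188-29367487, plus strand): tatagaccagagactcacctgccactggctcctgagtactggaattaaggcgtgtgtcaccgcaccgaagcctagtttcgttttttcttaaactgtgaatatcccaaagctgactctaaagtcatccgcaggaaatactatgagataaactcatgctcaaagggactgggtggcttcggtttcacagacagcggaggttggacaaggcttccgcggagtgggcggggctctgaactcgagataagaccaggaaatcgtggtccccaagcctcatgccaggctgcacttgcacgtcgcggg
Cd80 (chr16:38458683-38458982, plus strand): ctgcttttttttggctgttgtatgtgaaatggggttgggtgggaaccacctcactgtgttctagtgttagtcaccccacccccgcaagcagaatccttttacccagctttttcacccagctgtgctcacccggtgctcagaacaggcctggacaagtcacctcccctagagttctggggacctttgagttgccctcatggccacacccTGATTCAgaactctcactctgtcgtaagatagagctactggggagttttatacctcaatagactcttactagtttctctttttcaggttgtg
Havcr2 (chr11:46454681-46454980, plus strand): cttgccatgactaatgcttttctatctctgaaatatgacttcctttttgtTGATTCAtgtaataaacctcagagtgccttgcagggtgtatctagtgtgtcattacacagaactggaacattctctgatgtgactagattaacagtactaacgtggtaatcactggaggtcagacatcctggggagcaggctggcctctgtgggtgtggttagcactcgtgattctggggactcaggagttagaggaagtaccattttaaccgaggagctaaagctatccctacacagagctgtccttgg

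In the Icam1 window GGAAATTCC ran from base −153 to −145 and TTCCCGGAA from base −42 to −34, with the start base counted as 0. The Cd80 and Havcr2 windows each held TGATTCA, at −42 to −36 and at −200 to −194. The windows of Cd274, Pdcd1lg2 and Icosl held none of the 4 motifs, which says only that these letters are not in 300 bases. Over 32851 promoter windows of the same length, 8.62% held the NF-kappaB letters, 3.44% the ISRE, 8.30% the GAS and 7.81% the AP-1 letters, so a single match is common. No motif was found in more than 1 of the windows of Cd274, Pdcd1lg2, Cd80 and Icam1, whose levels moved together as described next. The Cd80 window lies inside the longer GENCODE gene, whose start is upstream of it.

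Cd274, on chromosome 19 (29367455 to 29388095, plus strand; mm10, GENCODE M21), was the most abundant of the 8 genes per length and had the largest differences. It stood at 116, 115 and 125 CPM in libraries labelled KO LPS 1 to 3 and at 1073, 731 and 2089 CPM in those labelled KO medium. WT LPS libraries had 1123, 1963 and 1772 CPM, and WT medium libraries 172, 89.2 and 148 CPM. No library of the high groups came near the low groups: the lowest of the 6 libraries labelled KO medium or WT LPS still had more Cd274 than the highest of the other 6. Under LPS, Cd274 was 19.2-fold lower in libraries labelled KO (log2 −4.26 ± 0.39 SE, edgeR quasi-likelihood test, Benjamini-Hochberg adjusted p = 4.5e-05). In medium it was 16.8-fold higher in those labelled KO (4.07 ± 0.39, edgeR, Benjamini-Hochberg adjusted p = 5.9e-05). The same test gave every adjusted p of single genes below. LPS gave a log2 fold of −4.16 ± 0.39 in labelled KO and of 4.17 ± 0.39 in WT, where Cd274 rose. In the order of group means, 1619 ± 440.2 CPM in WT LPS and 1298 ± 706 CPM in libraries labelled KO medium did not differ beyond their spread. Neither did 136 ± 42.5 CPM in WT medium and 119 ± 5.22 CPM in libraries labelled KO LPS (SD, n = 3 each).

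Pdcd1lg2 lies 22.8 kb from Cd274 on the same strand (29410919 to 29471161) and encodes the other PD-1 ligand. It was scarce, at 0.631, 0.764 and 1.48 CPM in libraries labelled KO LPS, behind which stood 10, 14 and 28 counts. Those labelled KO medium had 4.87, 6.38 and 2.76 CPM, WT LPS 3.45, 3.77 and 3.47 CPM, and WT medium 1.28, 0.611 and 1.04 CPM. Its groups separated as those of Cd274 did, without overlap and in the same directions. The log2 folds were −2.39 ± 0.46 for KO over WT in LPS (adjusted p = 0.0037), 3.11 ± 0.47 in medium (0.00086), −3.03 ± 0.47 for LPS in labelled KO (0.00085) and 2.47 ± 0.46 for LPS in WT (0.0037), all by edgeR with Benjamini-Hochberg adjustment. Pdcd1lg2 spans A930007I19Rik on the opposite strand without exon overlap, while Cd274 shares 396 exon bases with the antisense gene AC119228.1. Whether counting used strand is not given, so a small antisense share in either value cannot be told apart.

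Within a library, the FPKM ratio of Cd274 to Pdcd1lg2 does not depend on the scaling (FPKM is fragments per kilobase of gene and 1000000 counts). It was 83.5, 68.4 and 38.1 in libraries labelled KO LPS, and 100.1, 52.1 and 343 in those labelled KO medium. It was 148, 237 and 232 in WT LPS, and 60.9, 66.3 and 64.9 in WT medium. In WT the ratio was higher in every LPS library than in any medium library, by 1.65 on the log2 scale, and it was lower by 1.74 in libraries labelled KO LPS than in WT LPS. Neither can pass a threshold of 0.05, since 3 against 3 allows no p below 0.1: both had p = 0.1, adjusted 0.133 over the 8 ratio tests (exact permutation test, two-sided). In the libraries labelled KO medium the ratio spread from 52.1 to 343, overlapping both groups it was set against. There the log2 differences were −1.01 for KO LPS over KO medium and 0.92 for KO over WT in medium (exact permutation p = 0.4 each).

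Cd86, the more abundant of the B7 pair (chromosome 16, 36603869 to 36666081, minus strand), stood at 37.5, 32.1 and 31.2 CPM in libraries labelled KO LPS, against 226, 177 and 530.4 CPM in those labelled KO medium. WT LPS libraries had 249.7, 229 and 583 CPM, and WT medium libraries 48.7, 45.3 and 52.5 CPM. The low groups were tight and the high groups wide, each of them with library 3 far above the others. Cd86 was 15.3-fold lower in libraries labelled KO than in WT under LPS (log2 −3.94 ± 0.49, adjusted p = 0.0003) and 10.99-fold higher in medium (3.46 ± 0.48, adjusted p = 0.00048, edgeR with Benjamini-Hochberg adjustment). With LPS it rose 11.2-fold in WT (3.48 ± 0.48, adjusted p = 0.00056), while the libraries labelled KO LPS were 15.1-fold below those labelled KO medium (adjusted p = 0.00024, edgeR with Benjamini-Hochberg adjustment). By group mean, 354 ± 198 CPM in WT LPS came before 311 ± 192 in libraries labelled KO medium, then 48.8 ± 3.56 in WT medium and 33.6 ± 3.40 in libraries labelled KO LPS. The last pair had no overlap between libraries, yet the fitted log2 fold of KO LPS over WT medium was −0.46 with a 95% interval of −1.41 to 0.49.

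Cd80 lies on the same chromosome, 1789 kb away (38455561 to 38496335, plus strand), and binds the same receptors. It was at 8.65, 8.24 and 6.89 CPM in libraries labelled KO LPS, against 31.0, 14.7 and 40.7 CPM in those labelled KO medium. WT LPS libraries had 40.01, 12.9 and 30.3 CPM, and WT medium libraries 11.9, 10.5 and 17.3 CPM. Unlike Cd86, Cd80 overlapped between WT LPS and WT medium, through WT LPS 2, and between the libraries labelled KO medium and WT medium, through KO medium 2. The log2 fold of KO over WT was −2.39 ± 0.48 in LPS (adjusted p = 0.0043) and 1.95 ± 0.47 in medium (0.010; edgeR, Benjamini-Hochberg). That of LPS was −2.58 ± 0.48 in labelled KO (adjusted p = 0.0023) and 1.75 ± 0.46 in WT (0.021; edgeR, Benjamini-Hochberg). The rise with LPS in WT ended as a call without WT LPS 1 (edgeR, Benjamini-Hochberg adjusted p = 0.0891), WT LPS 3 (0.0726), WT medium 1 (0.0821) or WT medium 3 (0.0535). It ended too with library size as the only scaling (log2 1.07, adjusted p = 0.0829) and with only the WT groups fitted (1.68, 0.0668; edgeR, Benjamini-Hochberg). In medium, the call of KO over WT ended with library size only (1.12, edgeR Benjamini-Hochberg adjusted p = 0.0536) and with sex as a covariate (0.0584).

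The balance of the B7 pair moved with the groups as well. The FPKM ratio of Cd86 to Cd80 was 4.39, 3.95 and 4.57 in libraries labelled KO LPS, and 7.37, 12.2 and 13.2 in those labelled KO medium. It was 6.31, 18.004 and 19.4 in WT LPS, and 4.12, 4.38 and 3.07 in WT medium. Every library labelled KO medium or WT LPS had a higher ratio than every library of the other groups. On the log2 scale the ratio differed by −1.60 for KO over WT in LPS, 1.47 in medium, −1.30 for LPS in labelled KO and 1.77 in WT. Each had p = 0.1, the smallest that 3 against 3 allows, adjusted 0.133 over the 8 ratio tests (exact permutation test, two-sided), so none could pass 0.05. Since the ratio is taken within a library, scaling between libraries does not enter it.

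**Figure D1:**
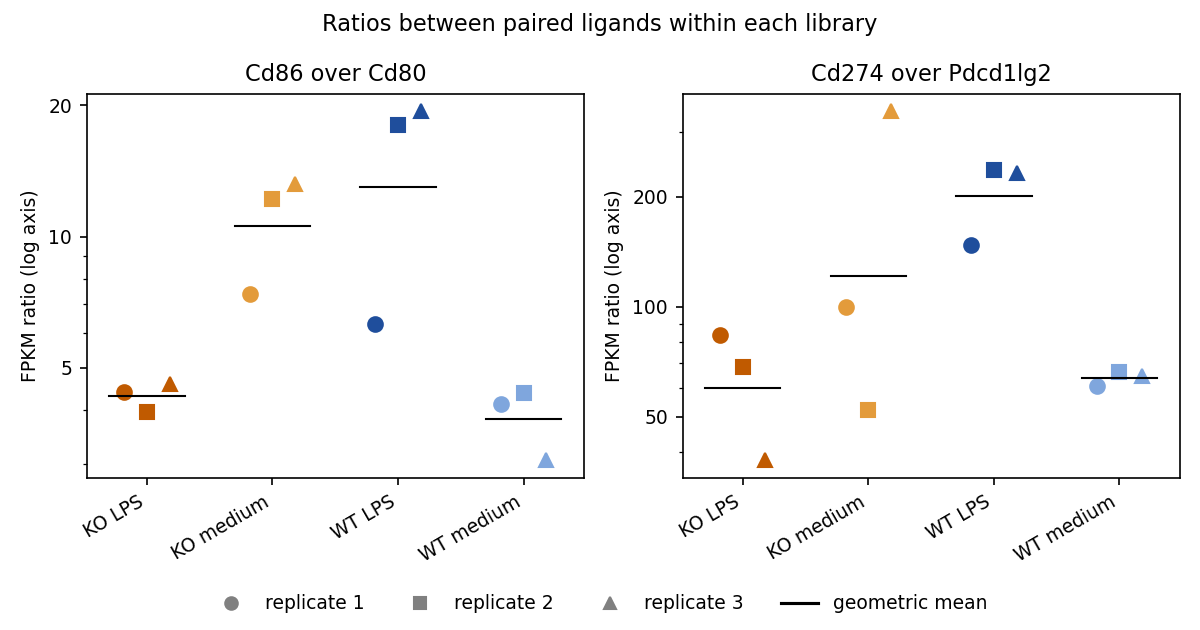
FPKM ratio of Cd86 to Cd80 (left) and of Cd274 to Pdcd1lg2 (right) in each library on log axes, by labelled group, with the marker shape giving the replicate and the line the geometric mean of 3 libraries. The Cd86 to Cd80 ratio lies between 3.07 and 4.57 in KO LPS and WT medium and between 6.31 and 19.4 in KO medium and WT LPS, while the Cd274 to Pdcd1lg2 ratio of KO medium spans 52.1 to 343.

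Icam1, the adhesion ligand (chromosome 9, 21015985 to 21028817, plus strand), stood at 87.5, 135 and 136 CPM in libraries labelled KO LPS, against 426, 475 and 572 CPM in those labelled KO medium. WT LPS libraries had 489, 237 and 508 CPM, and WT medium libraries 139, 51.6 and 127 CPM. Its groups split as for Cd274 with no overlap, although WT LPS 2 and WT medium 2 were each the lowest library of their group. The log2 folds were −2.35 ± 0.42 for KO over WT in LPS (adjusted p = 0.0023), 3.08 ± 0.43 in medium (0.0005), −2.78 ± 0.42 for LPS in labelled KO (0.00077) and 2.66 ± 0.42 in WT (0.0014; edgeR, Benjamini-Hochberg). Icam1 shares 511 exon bases with the antisense model Gm47079, which had at most 1 count in any library.

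**Figure D2:**
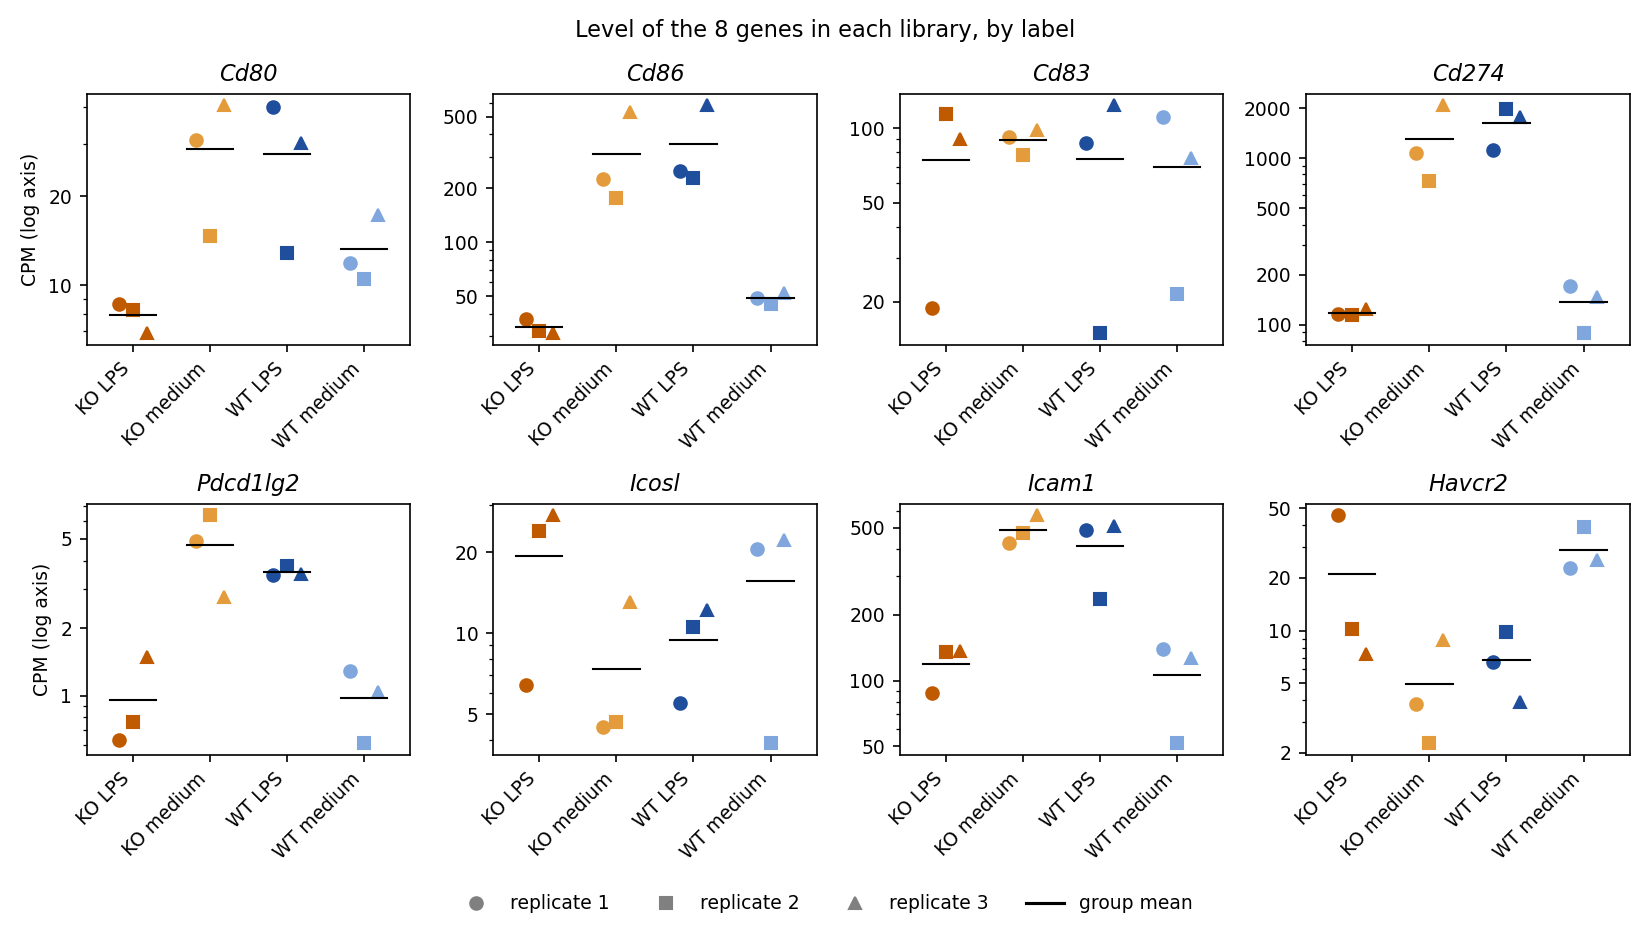
CPM of the 8 genes in each of the 12 libraries on log axes, by labelled group; the marker shape gives the replicate and the line the mean of 3 libraries. Cd80, Cd86, Cd274, Pdcd1lg2 and Icam1 stand higher on average in KO medium and WT LPS than in KO LPS and WT medium, whereas Cd83 lies between 14.9 and 124 CPM with 1 low library in 3 of the groups.

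Cd83 (chromosome 13, 43784775 to 43803132, plus strand) did not follow the groups. It stood at 18.9, 114 and 90.6 CPM in libraries labelled KO LPS, and 92.4, 77.6 and 98.1 CPM in those labelled KO medium. WT LPS had 87.1, 14.9 and 124 CPM, and WT medium 111, 21.6 and 76.1 CPM. In 3 of the groups a single library, KO LPS 1, WT LPS 2 or WT medium 2, stood far below its mates, and all 4 groups overlapped. The range within a group, on the log2 scale with TMM scaling, was 2.54 in libraries labelled KO LPS, 0.25 in those labelled KO medium, 3.36 in WT LPS and 2.06 in WT medium. In the WT LPS libraries that range exceeded that of 98.5% of genes kept, and in those labelled KO LPS that of 94.9%, while in those labelled KO medium it exceeded that of 9.29%. The log2 fold of KO over WT was −0.62 ± 0.77 in LPS (95% interval −2.30 to 1.05) and 1.25 ± 0.77 in medium (−0.44 to 2.94). That of LPS was −1.01 ± 0.77 in labelled KO and 0.86 ± 0.77 (−0.81 to 2.54) in WT. None passed the threshold, with adjusted p between 0.257 and 0.591 by edgeR with Benjamini-Hochberg adjustment, and the intervals are wide.

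Icosl (chromosome 10, 78069302 to 78083913, plus strand), the ligand of ICOS, was at 6.44, 24.0 and 27.4 CPM in libraries labelled KO LPS, against 4.48, 4.68 and 13.01 CPM in those labelled KO medium. WT LPS libraries had 5.51, 10.5 and 12.2 CPM, and WT medium libraries 20.5, 3.90 and 22.2 CPM. The highest 4 values belonged to KO LPS 2 and 3 and WT medium 1 and 3, and in both of those groups the remaining library was among the low ones, so the groups overlapped. The log2 fold of KO over WT was 0.53 ± 0.62 in LPS (95% interval −0.83 to 1.89) and −0.21 ± 0.63 in medium (−1.57 to 1.16). That of LPS was 0.67 ± 0.63 in labelled KO and −0.07 ± 0.62 in WT, with adjusted p from 0.437 to 0.953 (edgeR, Benjamini-Hochberg). The same libraries with high Icosl were 4 of the 5 with Xist above 20 CPM. With sex as a covariate the signs of all 4 log2 folds turned, to −0.25 and 0.92 for KO over WT in LPS and in medium, −0.44 for LPS in labelled KO and 0.73 in WT, none past the threshold. They were also the 4 with the highest sum of 7 B cell markers, at 315 and 418 CPM in KO LPS 2 and 3 and 81.9 and 115 CPM in WT medium 1 and 3, against 14.6 to 56.7 CPM in the other 8 libraries. None of the 7 markers was at 0 in any library, and the part of B cells in Icosl was not tested.

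Havcr2 (chromosome 11, 46454935 to 46481255, plus strand), which encodes TIM3, ran the other way. It stood at 45.7, 10.2 and 7.37 CPM in libraries labelled KO LPS, and 3.82, 2.27 and 8.83 CPM in those labelled KO medium. WT LPS had 6.64, 9.83 and 3.89 CPM, and WT medium 22.6, 38.9 and 25.3 CPM. WT medium lay above WT LPS and above the libraries labelled KO medium without overlap, while the libraries labelled KO LPS split into 1 high and 2 low ones. No fold between groups passed. The log2 fold of KO over WT was 1.17 ± 0.67 in LPS (adjusted p = 0.228) and −1.80 ± 0.69 in medium (0.0727; edgeR, Benjamini-Hochberg). That of LPS was 1.39 ± 0.68 in labelled KO (adjusted p = 0.141) and −1.58 ± 0.68 in WT (0.131; edgeR, Benjamini-Hochberg). Without the library labelled KO LPS 1, Havcr2 was lower in libraries labelled KO than in WT in medium (adjusted p = 0.0186) and fell with LPS in WT (adjusted p = 0.0386, edgeR with Benjamini-Hochberg adjustment). With library size only, the call was also made in medium (log2 −2.54, edgeR, Benjamini-Hochberg adjusted p = 0.0130). It was made for LPS in labelled KO (2.08, adjusted p = 0.0292) and in WT (−2.09, 0.0401) too, both by edgeR with Benjamini-Hochberg adjustment. With that scaling 5574 of 13773 genes were called lower in medium, 5317 higher for LPS in labelled KO and 3200 lower for LPS in WT. Without the filter on low counts the call was made in all 3 comparisons as well. In medium it was made in 7 of 19 alternatives, among them sex as a covariate (−2.38, adjusted p = 0.0220), only those 2 groups fitted (−1.80, 0.0394; both edgeR, Benjamini-Hochberg) and DESeq2 (−1.83, Benjamini-Hochberg adjusted p = 0.0257). For LPS in labelled KO the log2 fold ran from 0.10, without KO LPS 1, to 2.02 with 1 library left out, so that value rests on KO LPS 1.

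KO LPS 1 and WT medium 2 shared a pattern over these 3 genes, with the lowest Cd83, the lowest Icosl and the highest Havcr2 of their groups. Both also had low Adgre1, which encodes the macrophage marker F4/80, at 558 CPM in KO LPS 1 against 1562 and 1808 CPM in its mates and at 389 CPM in WT medium 2 against 1543 and 1634 CPM. Csf1r was low in both as well, at 1955 and 1365 CPM. Cd68 lay within the range of their mates, at 1602.5 and 1305 CPM. The sum of 9 macrophage markers was 21526 CPM in KO LPS 1, against 34872 and 23052 CPM in its mates. In WT medium 2 that sum was 35046 CPM, between its mates at 32625 and 36322 CPM. WT LPS 2 had low Cd83 but the highest Adgre1 of its group, at 1771 CPM, and its Havcr2 was the highest of the 3 WT LPS libraries. KO LPS 1 and WT medium 2 had Xist under 20 CPM whereas their mates were above it, so sex and these differences cannot be told apart within those groups. Over all genes kept other than the 8, KO LPS 1, KO medium 3, WT LPS 2 and WT medium 2 were the libraries farthest from their group mates. Without these 4, an alternative chosen after the data were seen, many genes were called by edgeR. Removing the library farthest from its mates narrows the spread within a group by construction. The adjusted p of this alternative therefore cannot be taken at face value. Of 14066 genes tested, 6808 were called for LPS in WT and 8027 for LPS in labelled KO. For KO over WT, 7276 were called in LPS and 8051 in medium. Among them, Cd83 rose with LPS in WT (log2 0.80, edgeR, Benjamini-Hochberg adjusted p = 0.0372). Icosl was then called in 3 of the 4 comparisons, with 0.91 for KO over WT in LPS (0.0462), −1.46 in medium (0.0068) and 1.74 for LPS in labelled KO (0.0029; edgeR, Benjamini-Hochberg). Havcr2 was then lower for KO over WT in medium (−2.20, adjusted p = 0.0009) and fell with LPS in WT (−1.56, 0.0051; edgeR, Benjamini-Hochberg).

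**Figure D3:**
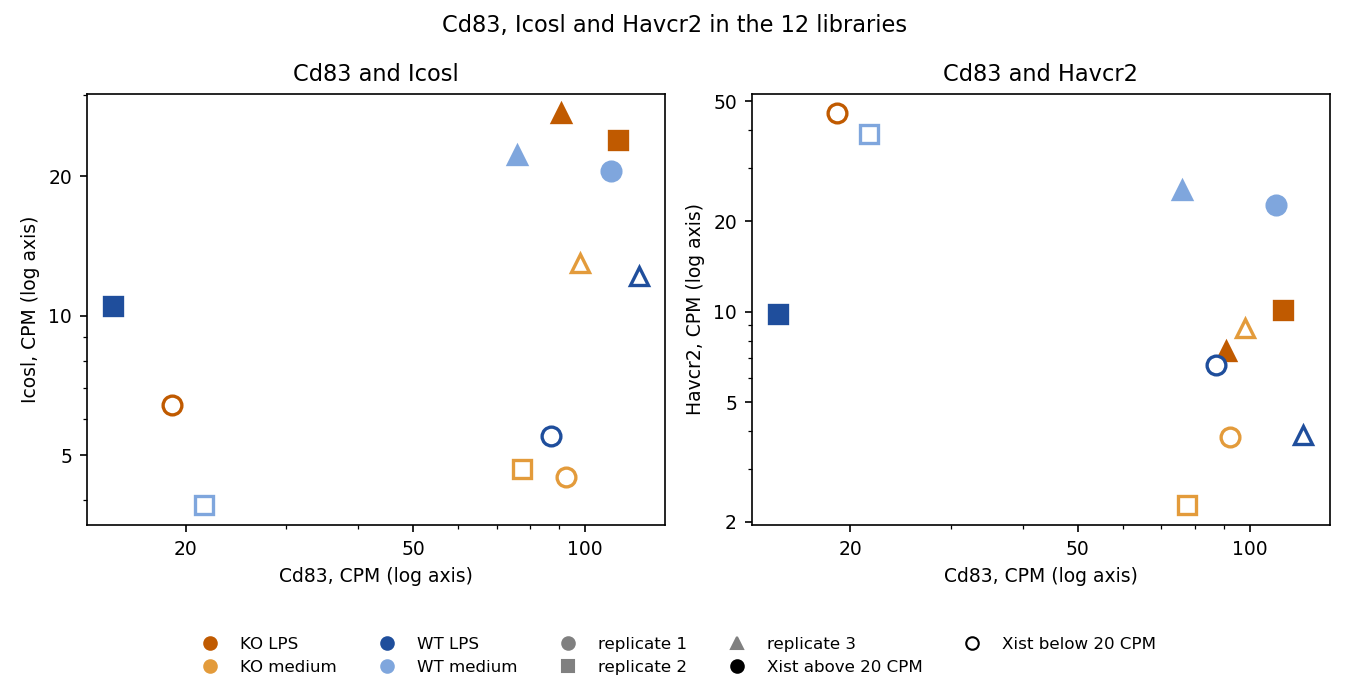
CPM of Cd83 against Icosl (left) and against Havcr2 (right) in the 12 libraries on log axes; the colour gives the labelled group, the shape the replicate, and filled markers have Xist above 20 CPM. KO LPS 1 and WT medium 2 stand apart from their mates at Cd83 of 18.9 and 21.6 CPM with Havcr2 of 45.7 and 38.9 CPM.

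Counted together under LPS, 5 of the 8 genes were lower in libraries labelled KO than in WT (Cd80, Cd86, Cd274, Pdcd1lg2 and Icam1) and 0 were higher. Of all genes tested 24.1% were called, 13.7% lower and 10.4% higher. The median log2 fold of the 8 was −2.37, against 0.06 over all genes tested. In medium the same 5 genes were higher in libraries labelled KO than in WT and 0 were lower. Of all genes 26.3% were called, 14% higher and 12.3% lower, and the median was 2.51 against −0.02. Between the libraries labelled KO LPS and KO medium the 5 were lower (30.4% of genes called, 15.1% higher and 15.3% lower), with a median of −2.68 against 0.04. Between WT LPS and WT medium the 5 rose (18.3% of genes called, 11.9% higher and 6.46% lower), with a median of 2.11 against −0.06. These comparisons share groups in pairs, so their counts are not independent of each other.

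Overlap between libraries gave a similar but not identical picture. In 4 comparisons 5 genes had no overlap in CPM: Cd80, Cd86, Cd274, Pdcd1lg2 and Icam1 for KO over WT in LPS, where 45.7% of all genes had none, and for LPS in labelled KO, where 57% had none. For KO over WT in medium (54.7% of all genes) and for LPS in WT (42.4%), Havcr2 took the place of Cd80. A count of 5 of 8 is read against these shares of all genes, which are large. Scaled by library size only, 5 remained lower for KO over WT in LPS, and for LPS in labelled KO, where Havcr2 was added as higher. With that scaling 4 remained higher for KO over WT in medium and for LPS in WT, where Cd80 was lost and Havcr2 added as lower. Of 13773 genes, it called 3487 higher and 1194 lower for KO over WT in LPS, and 5317 and 1177 for LPS in labelled KO. It called 1070 higher and 5574 lower for KO over WT in medium, and 1033 and 3200 for LPS in WT.

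**Figure D4:**
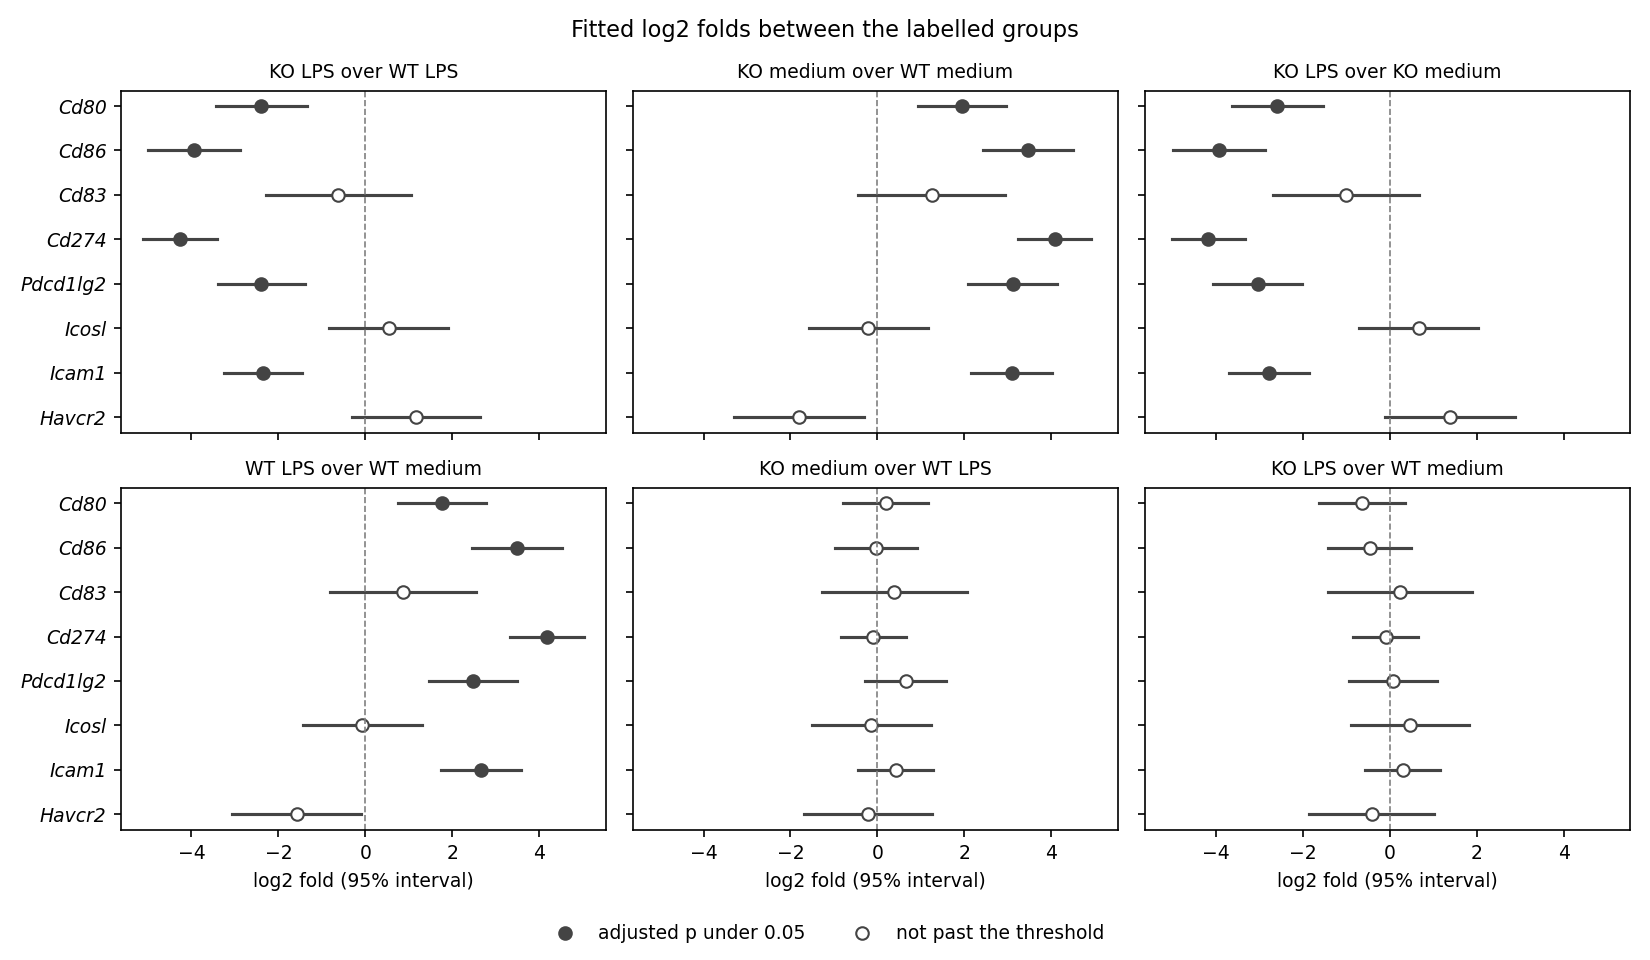
Fitted log2 folds with 95% intervals of the 8 genes in 6 comparisons of labelled groups; filled points passed an adjusted p of 0.05 (edgeR). The 5 called genes lie below 0 for KO LPS over WT LPS and over KO medium and above 0 for KO medium over WT medium and WT LPS over WT medium, and no gene is called in KO medium over WT LPS or KO LPS over WT medium.

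The difference of the LPS effects, labelled KO minus WT, was tested as an interaction, in which 41.1% of all genes were called. Of the 8 genes 6 were called, 5 with a negative term (20.6% of all genes) and 1 with a positive term (20.5%). The log2 term was −8.33 ± 0.55 for Cd274 (adjusted p = 1.2e-06), −7.40 ± 0.68 for Cd86 (1e-05), −5.50 ± 0.66 for Pdcd1lg2 (6.1e-05), −5.44 ± 0.60 for Icam1 (3.3e-05) and −4.34 ± 0.67 for Cd80 (0.00034; edgeR, Benjamini-Hochberg). Havcr2 had the positive term, 2.97 ± 0.96 (edgeR with Benjamini-Hochberg adjustment, adjusted p = 0.027), which did not pass without KO LPS 1 (1.68, adjusted p = 0.0742), KO medium 1 (0.0615), KO medium 2 (0.0592), WT LPS 3 (0.0652) or WT medium 2 (0.0504). Cd83 (−1.88 ± 1.09) and Icosl (0.74 ± 0.88) did not pass, though Cd83 did without WT LPS 2 (−2.38, edgeR Benjamini-Hochberg adjusted p = 0.0490). Without the farthest library of each group, a choice that narrows the spread by construction, 9206 of 14066 genes tested were called and both passed. The terms were −1.28 for Cd83 (adjusted p = 0.0161) and 2.37 for Icosl (adjusted p = 0.0024, both edgeR with Benjamini-Hochberg adjustment). The sign of the 5 negative terms comes from opposite directions of the labelled effects, and it holds only as far as the labels of the KO libraries do.

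Because the marker genes of LPS put the labelled groups in crossed order, the libraries labelled KO medium were also set against WT LPS and those labelled KO LPS against WT medium. For KO medium over WT LPS, 0 of the 8 genes were called where 0% of all genes were (edgeR; 270 genes of 13773 had an unadjusted p under 0.05, and DESeq2 called 1). The log2 folds were −0.10 for Cd274 (95% interval −0.84 to 0.65), −0.03 for Cd86 (−0.97 to 0.92) and 0.19 for Cd80 (−0.79 to 1.17). They were 0.42 for Icam1 (−0.44 to 1.29) and 0.64 for Pdcd1lg2 (−0.29 to 1.58). The 3 other genes had wider ones, 0.39 for Cd83 (−1.28 to 2.05), −0.14 for Icosl (−1.51 to 1.23) and −0.22 for Havcr2 (−1.70 to 1.25). None of the 8 was without overlap, where 7.61% of all genes were.

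For KO LPS over WT medium, 0 of the 8 genes were called where 0% of all genes were (edgeR; 1135 genes had an unadjusted p under 0.05, and DESeq2 called 39). The folds were −0.09 for Cd274 (95% interval −0.84 to 0.65), −0.46 for Cd86 (−1.41 to 0.49), −0.64 for Cd80 (−1.63 to 0.36), 0.31 for Icam1 (−0.56 to 1.17) and 0.08 for Pdcd1lg2 (−0.93 to 1.08), all on the log2 scale. Cd80 and Cd86 were lower in each library labelled KO LPS than in any WT medium library, 2 of 8 genes where 9.05% of all genes had no overlap. Cd83, Icosl and Havcr2 were at 0.24 (−1.43 to 1.91), 0.46 (−0.89 to 1.82) and −0.41 (−1.85 to 1.03). A fold that missed the threshold does not show that 2 groups were alike.

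Compared per length, in FPKM, Cd274 led the 8 genes in 10 of the 12 libraries and Cd83 in the other 2, KO LPS 2 and 3. Cd274 spanned 24.6 to 577 FPKM, Icam1 11.8 to 131 FPKM, Cd86 8.51 to 159 FPKM and Cd83 5.81 to 48.2 FPKM, and these 4 were the abundant members. Cd80 spanned 1.86 to 10.99 FPKM, Havcr2 0.833 to 16.8 FPKM, Icosl 0.844 to 5.93 FPKM and Pdcd1lg2 0.372 to 3.88 FPKM. Pdcd1lg2 was the lowest in 7 libraries, namely all labelled KO LPS, all WT medium and KO medium 3, Icosl in 3 (KO medium 1 and WT LPS 1 and 2) and Havcr2 in 2 (KO medium 2 and WT LPS 3). The place at the bottom thus changed with the group, and the inhibitory ligand Cd274 outranked the activating ligands Cd80 and Cd86 in every library.

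Profiles over the 12 libraries were compared by the root mean square distance of mean-centred log2 CPM, a description in which both groups and libraries count. Among the 8 genes, Cd86 and Cd274 were nearest to each other (0.49), as were Pdcd1lg2 and Icam1 (0.49), and Cd274 and Havcr2 were farthest apart (2.83). Of all named genes kept, the nearest to Cd274 were Gbp9 (0.27), Ifi213 (0.27) and Gbp7 (0.28), of which the Gbp genes encode interferon-induced guanylate-binding proteins. Nearest to Cd86 were Car13, Dusp16 and Il18 (0.33 each), to Cd80 Pi4k2b (0.25), Tm4sf1 (0.33) and Vps54 (0.33), and to Pdcd1lg2 Tap2 (0.29), C1ra (0.34) and Scarf1 (0.34). Icam1 lay nearest to Ppp1r15b (0.21), Tnip1 (0.22) and the kinase gene Pim1 (0.23). The genes nearest to Cd83 and Havcr2 were less close, with Tnfaip2 (0.46), Mapre2 (0.53) and Gpr132 (0.55) for Cd83 and Mical2 (0.44), Tsr1 (0.48) and Idi1 (0.48) for Havcr2, while Icosl had Zfp36l1 (0.24), Grk3 (0.24) and Zfp217 (0.26).

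Other co-signalling ligands were counted from a list of 25 genes, of which 19 passed the filter on low counts. Under LPS, 9 were lower and 1 higher in libraries labelled KO than in WT, where 13.7% and 10.4% of all genes were, with a median log2 fold of −1.11 over the 19, against 0.06 over all genes. Cd40, the receptor for T cell CD40 ligand, averaged 19.3 ± 10.2 CPM in libraries labelled KO LPS and 927 ± 644 CPM in WT LPS (log2 −6.19 ± 0.83), and Lgals9, which encodes galectin 9, 327 ± 45.2 and 939 ± 75.8 CPM (−2.03 ± 0.31). The TNF family ligands Tnfsf4, the OX40 ligand (−6.04 ± 1.001), Tnfsf15 (−6.03 ± 1.20) and Tnfsf9 (−2.87 ± 0.68), and the adhesion receptor Slamf1 (−4.91 ± 1.13) were lower too. In libraries labelled KO LPS, Tnfsf4 had only 3, 1 and 5 counts and Tnfsf15 2, 16 and 9. Slamf1 was uneven in WT LPS, at 37.2, 12.7 and 334 CPM. The gene that was higher was Vsir, which encodes the inhibitory ligand VISTA (1.84 ± 0.58, adjusted p = 0.0371 by edgeR with Benjamini-Hochberg adjustment). Vsir overlapped between these groups, with 281 CPM in KO LPS 1 and 287 CPM in WT LPS 2. In medium 8 were higher and 1 lower in libraries labelled KO than in WT (14% and 12.3% of all genes), with a median of 1.19. In labelled KO 1 was higher and 8 lower with LPS (15.1% and 15.3%; median −0.83), and in WT 9 rose with LPS and 0 fell (11.9% and 6.46%; median 1.91). Vsir averaged 644 ± 324 CPM in libraries labelled KO LPS and 44.9 ± 12.3 CPM in those labelled KO medium (log2 3.09 ± 0.61, adjusted p = 0.0031 by edgeR with Benjamini-Hochberg adjustment).

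Of 14 receptors and binding partners of the 8 genes, 12 were tested. Under LPS 1 was higher and 2 lower in libraries labelled KO than in WT, where 24.1% of all genes were called, a share like that of the list. The higher gene was Cd28, the T cell receptor for CD80 and CD86, at 59.5 ± 33.5 against 6.10 ± 5.20 CPM (2.86 ± 0.95). The lower ones were Ezr, an actin linker of ICAM1, at 80.6 ± 8.27 against 240.1 ± 179 CPM (−2.14 ± 0.54), and Lgals9, which stands in this list too as a ligand of TIM3. With LPS in WT 3 rose and 1 fell, where 18.3% of all genes were called. Lgals9 (2.82 ± 0.32), Ezr (2.71 ± 0.55) and Itgal, an integrin chain that binds ICAM1 (1.70 ± 0.53), rose, and Cd28 (−3.68 ± 0.98) fell. Itgal overlapped between the groups, at 145, 505 and 177 CPM in WT LPS and 185, 71.2 and 112 CPM in WT medium. Cd28 was uneven in WT medium, at 174, 11.9 and 168 CPM. In medium 2 were higher (Lgals9 and Ezr) and 1 lower (Cd28, −4.22 ± 1.01) in libraries labelled KO, against 26.3% of all genes called. With LPS in labelled KO 2 were higher, Cd28 (3.41 ± 0.98) and Spn (2.17 ± 0.67), and 2 lower, Lgals9 and Ezr, against 30.4%. The median log2 folds of the list, 0.11 for KO over WT in LPS and 0.09 in medium, 0.15 for LPS in labelled KO and 0.34 in WT, lay near those of all genes. The sum of 8 T and NK cell markers was 3.91 to 20.1 CPM in libraries labelled KO LPS, 12.6 to 33.4 CPM in those labelled KO medium, 6.63 to 22.2 CPM in WT LPS and 3.13 to 13.3 CPM in WT medium, with Cd3d, Cd3e, Ncr1 or Klrb1c at 0 in 6 libraries. A high sum could rest on few genes. KO medium 1, at 33.4 CPM, had 3 of the 8 markers above 3 counts, and KO medium 2, at 26.1 CPM, had 1. In WT medium 1, at 13.3 CPM, all 8 were above 3 counts.

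Of 17 regulators of these genes or of their proteins at the surface, all 17 were tested. Under LPS 9 were lower and 1 higher in libraries labelled KO than in WT, with a median log2 fold of −1.57, and 24.1% of all genes were called. In medium 11 were higher and 1 lower (median 1.57; 26.3% of all genes called). In labelled KO 1 was higher and 11 lower with LPS (−1.78; 30.4%), and in WT 9 rose and 1 fell (1.29; 18.3%). Jak2 and Irf1, steps of the interferon-gamma pathway to Cd274, were at −4.15 ± 0.40 and −2.03 ± 0.44 for KO over WT in LPS. March1, which removes CD86 from the surface, was at 47.7 ± 9.99 CPM in libraries labelled KO LPS and at 312 ± 82.3 CPM in WT LPS (−3.20 ± 0.37), so that its transcript was higher where that of Cd86 was higher. Batf (−2.78 ± 0.53) and Nfkb2 (−2.75 ± 0.57) were lower as well, while Cmtm4, whose human protein stabilises PD-L1, was higher (1.26 ± 0.41, adjusted p = 0.0430 by edgeR with Benjamini-Hochberg adjustment) and its relative Cmtm6 was at −0.40 ± 0.37 (0.465). With LPS in WT, Jak2 rose by 3.70 ± 0.39, March1 by 2.39 ± 0.36, Batf by 2.995 ± 0.54 and Irf1 by 2.43 ± 0.45, and Cmtm4 fell by 1.38 (SE 0.41). In KO medium over WT LPS and KO LPS over WT medium, 0 genes of the 3 lists were called by edgeR.

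**Figure D5:**
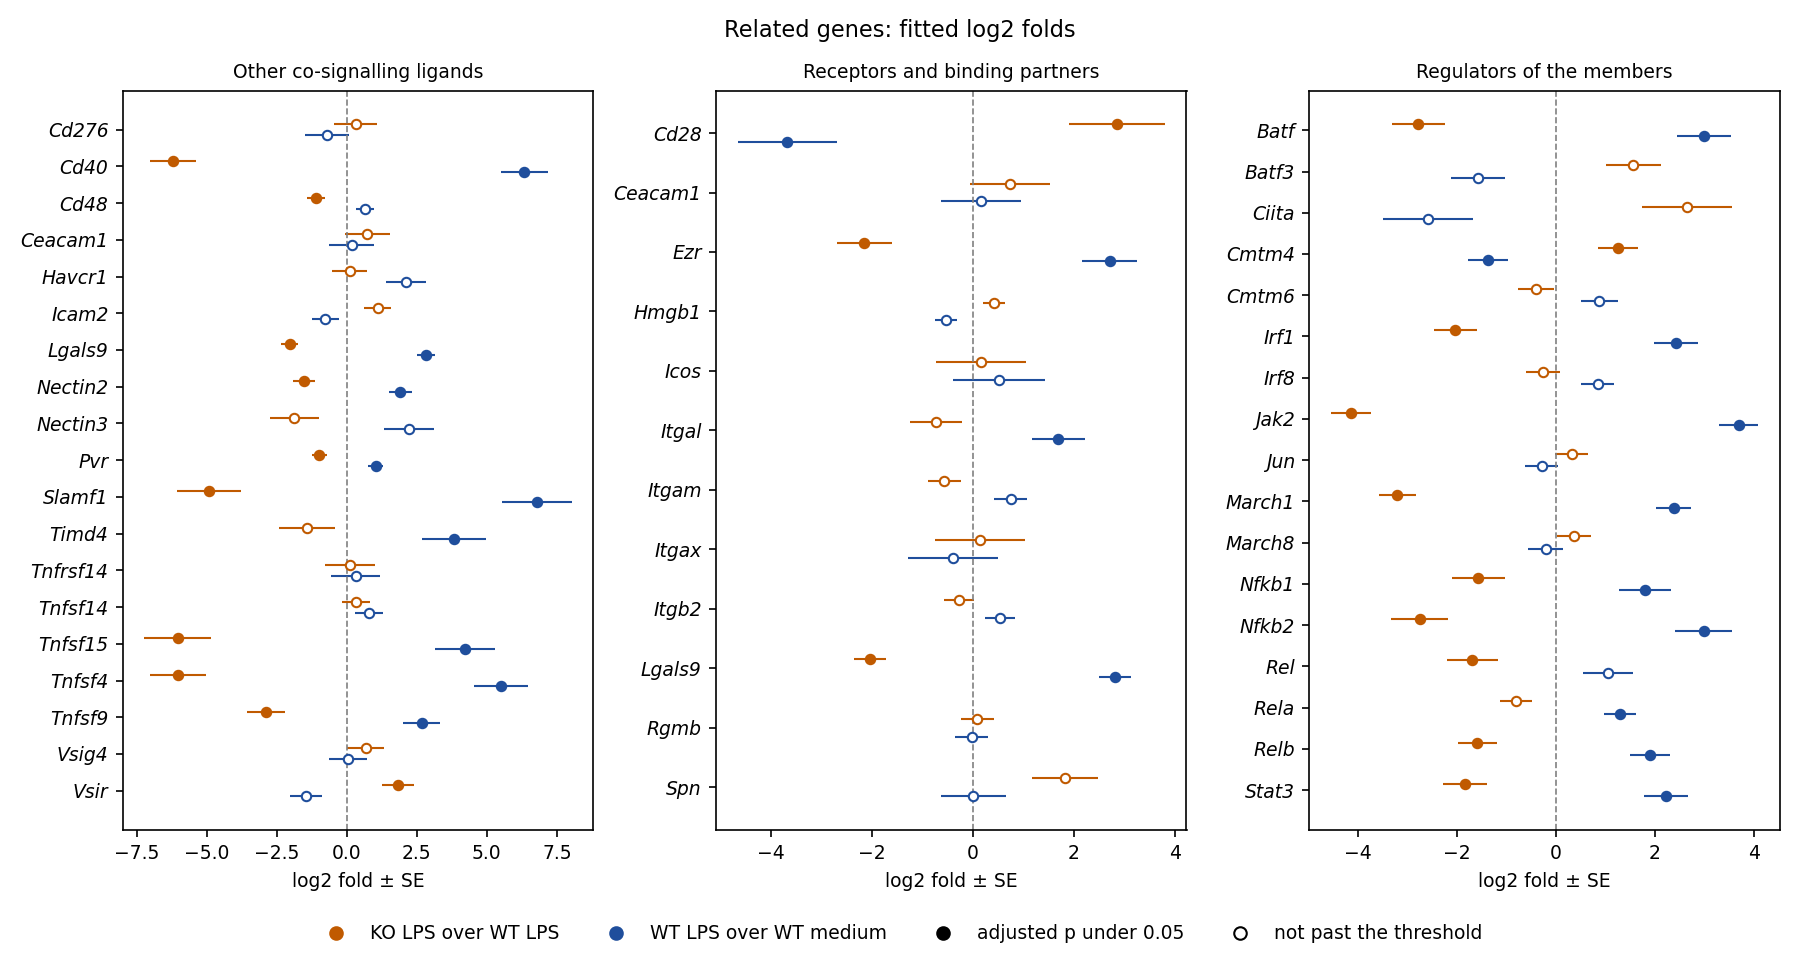
Fitted log2 folds ± SE of the tested genes of the 3 lists of related genes, for KO LPS over WT LPS and for WT LPS over WT medium; filled points passed an adjusted p of 0.05 (edgeR). Cd40 is at −6.19 and 6.34 and Jak2 at −4.15 and 3.70, with most receptors and binding partners near 0.

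Markers of other cell types that carry these molecules moved with some groups. The B cell sum was 56.7 to 418 CPM in libraries labelled KO LPS, 14.6 to 46.6 CPM in those labelled KO medium, 32.6 to 52.4 CPM in WT LPS and 28.0 to 115 CPM in WT medium. The sum of 8 dendritic cell markers was 18.2 to 68.5 CPM in libraries labelled KO LPS, 30.4 to 57.9 CPM in those labelled KO medium, 26.9 to 61.1 CPM in WT LPS and 5.96 to 18.3 CPM in WT medium. Of these dendritic cell markers Xcr1 was at 0 in 4 libraries and Cd209a in 2. Fscn1 and Ccr7 made up most of the sum in KO medium 3, at 34.2 and 19.2 of 57.9 CPM. The same held in WT LPS 3, at 32.2 and 23.4 of 61.1 CPM. With LPS in labelled KO, 2 of 7 dendritic cell markers tested were called higher and 2 lower (15.1% and 15.3% of all genes). The sum of 9 neutrophil markers was 1099 to 6866 CPM in libraries labelled KO LPS, 1089.8 to 3101 CPM in those labelled KO medium, 954 to 4369.9 CPM in WT LPS and 826 to 1222 CPM in WT medium. The sum of 6 mast cell and basophil markers was 3.91 to 118 CPM in libraries labelled KO LPS, 2.76 to 11.3 CPM in those labelled KO medium, 3.38 to 15.6 CPM in WT LPS and 3.75 to 14.9 CPM in WT medium. The sum of 7 stromal and endothelial markers was 79.3 to 143 CPM in libraries labelled KO LPS, 42.9 to 145 CPM in those labelled KO medium, 44.9 to 277 CPM in WT LPS and 51.4 to 142 CPM in WT medium. For KO over WT in LPS, edgeR called higher 3 of 7 B cell, 3 of 8 neutrophil, 2 of 7 dendritic cell and 0 of 5 mast cell markers tested, where 10.4% of all genes were higher, and 0 of any of these lower. Of the 7 stromal and endothelial markers 3 were lower (13.7% of all genes), with a median log2 fold of −2.04, and 0 higher. With LPS in WT 2 of these 7 rose (11.9% of all genes), with a median of 1.79, and in the interaction 3 had a negative term (20.6%), directions that Cd274 and Icam1 also had. The part of these cell types in the levels of the 8 genes was not tested.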

How the data were processed

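The authors deposited whole-number read counts per gene, not normalized, and FPKM values of the same genes; per the submitters' processing notes the build was mm10, while for the aligner, counter, strand setting and annotation the sources used here name nothing. The labels name both a TruSeq and a KAPA Stranded kit. The deposited FPKM values are the authors' counts scaled by library total and gene length, checked to within 0.00776% over 10378 genes, so the 2 tables are not independent. No 2 libraries were alike within sampling noise (lowest chi-square per degree of freedom 22.3).

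Counts were fitted with edgeR 4.0.16 in R 4.3.3 (glmQLFit and glmQLFTest, TMM scaling, filterByExpr, 1 mean per group over all 12 libraries), with Benjamini-Hochberg adjustment over 13773 genes and calls at an adjusted p under 0.05; SEs come from the F statistic. DESeq2 1.42.0 was an alternative. CPM are counts per 1000000 of the library total, without TMM scaling. FPKM ratios were tested by exact permutation. Positions are from GENCODE M21 (GRCm38), counted from 1.

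Named genes are the 8 members, Nlrc3, 4 LPS-responsive genes, the called members of 3 related lists with the smallest p (up to 6 per list and comparison), Vsir and Cmtm4 or Cmtm6 beside them where a count of 1 or a contrast was described, chosen after their values were seen, and the 3 genes nearest in profile to each member. The members, lists, tests and the crossed comparisons were chosen with earlier results of these data known. Of the list of regulators, 1 gene is not reported here and was left out of its counts. Alternatives covered scaling, the filter, a replicate block, sex, the groups fitted, the pseudocount of ratios and each library left out. Replicate numbers were in the labels but did not pair the samples. Sample codes in the labels share a number between WT LPS 1 and WT medium 2 and between WT LPS 2 and WT medium 3. Deviations from the group means correlated at 0.59 and 0.46 in these pairs. Pairs without a shared number reached such values too. WT LPS 2 with WT medium 1 had 0.48, and KO LPS 1 with WT medium 2 had 0.64. Whether a shared number marks a shared animal is not given, and LPS in WT was fitted unpaired.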

Additional observations from a re-analysis of the deposited data

Results flagged for a closer look

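For 6 genes the LPS effect differed between the labelled genotypes by a test of the difference itself, the edgeR interaction term with Benjamini-Hochberg adjustment. Of all genes tested, 41.1% were called by it. The term, labelled KO minus WT, was −8.33 on the log2 scale for Cd274, −7.40 for Cd86, −5.50 for Pdcd1lg2, −5.44 for Icam1, −4.34 for Cd80 and 2.97 for Havcr2. The Havcr2 term kept its call in 12 alternatives and lost it in 6. For Cd274, Cd86, Pdcd1lg2 and Icam1 all 3 libraries labelled KO LPS stood below all 3 labelled KO medium while all 3 of WT LPS stood above all 3 of WT medium. The LPS marker genes of the libraries labelled KO went the same opposite way. Nlrc3 went against the genotype label in KO LPS and with it in KO medium. A difference in response and a difference in the naming of libraries therefore cannot be told apart.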

How the results depend on the processing

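Over the 4 comparisons of labelled groups, each of Cd274, Cd86, Pdcd1lg2 and Icam1 kept its direction and its call in all 76 alternative values, and Cd80 kept its direction in all 76 and its call in 68. The replicate block (numbers that did not pair the samples: of 18 same-number pairs, 8 correlated above 0.1, range −0.63 to 0.57, and 1 of 12 libraries correlated best with its own number throughout) gave 2139 calls for LPS in WT, 3620 for LPS in labelled KO, 2898 and 3164 for KO over WT in LPS and in medium and 5285 for the interaction, where Havcr2 missed the threshold (2.75, edgeR Benjamini-Hochberg adjusted p = 0.0568).

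Counts of genes called, or their split into higher and lower, changed with the processing as follows, some counts by less than 1.5 times. With library size only they were 4233 for LPS in WT (1033 higher and 3200 lower, against 1636 and 890), 6494 for LPS in labelled KO (5317 and 1177, against 2082 and 2104) and 6644 for KO over WT in medium (1070 and 5574, against 1932 and 1688); for KO over WT in LPS 3487 were higher and 1194 lower, against 1435 and 1889, and for the interaction 6597 and 1538, against 2825 and 2832. With only the 2 groups compared, LPS in WT had 1590 and KO over WT in LPS 2185. Leaving out the farthest library of each group, chosen after the data were seen, narrows the spread by construction. Calls were then 6808 for LPS in WT and 8027 for LPS in labelled KO. For KO over WT they were 7276 in LPS and 8051 in medium. The interaction had 9206 and KO LPS over WT medium 2227. In the latter 1 of the 8 genes was called, Havcr2 (−1.44, edgeR Benjamini-Hochberg adjusted p = 0.0218). Without the filter KO medium over WT LPS had 3 calls and KO LPS over WT medium 99; with DESeq2 they had 1 and 39. Leaving out 1 library gave 1384 (without WT LPS 3) to 3042 for LPS in WT, 2543 (without KO LPS 2) to 5095 for LPS in labelled KO, 1810 (without KO LPS 2) to 4093 for KO over WT in LPS, 2196 (without WT medium 1) to 4735 in medium, 0 to 2 for KO medium over WT LPS and 0 to 245 (without KO LPS 1) for KO LPS over WT medium. The cause was not tested.

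Signs turned only for values that had not passed. With sex as a covariate Icosl was at 0.73 for LPS in WT, −0.44 for LPS in labelled KO, −0.25 and 0.92 for KO over WT in LPS and in medium, −1.17 for the interaction and 0.19 for KO medium over WT LPS. Without the farthest libraries Cd80, Cd83 and Icam1 were at −0.48, −0.18 and −0.0089 for KO medium over WT LPS; Pdcd1lg2 was at −0.039 for KO LPS over WT medium, at −0.031 with library size only and −0.024 with 2 groups. With 1 library left out, Icosl ran from −0.54 to 0.20 for LPS in WT, −0.85 to 0.053 for KO over WT in medium, −0.73 to 0.12 for KO medium over WT LPS and −0.030 to 0.87 for KO LPS over WT medium. Havcr2 ran from −0.12 to 1.58 for KO over WT in LPS, −0.84 to 0.064 for KO medium over WT LPS and −1.70 to 0.0049 for KO LPS over WT medium. For KO medium over WT LPS the ranges were −0.21 to 0.62 for Cd80, −0.12 to 0.95 for Cd83, −0.54 to 0.57 for Cd86 and −0.53 to 0.13 for Cd274, and for KO LPS over WT medium −0.22 to 0.75 for Cd83, −0.38 to 0.30 for Pdcd1lg2, −0.29 to 0.085 for Cd274 and −0.020 to 0.54 for Icam1.

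Depth limits Pdcd1lg2 most, with 8 to 90 counts per library.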
